A study of Arabidopsis thaliana with 12 samples.

Results

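The arrays described here compare seedlings that cannot perceive gibberellin (GA) with seedlings that make too little of it, both without added hormone. They are 3 mock arrays of the triple mutant gid1a-1 gid1b-1 gid1c-2 and 3 mock arrays of ga-1 (SALK_109115), 6 of the 12 arrays of the series, chosen by their titles alone. Arabidopsis thaliana seedlings grown in light to an age of 7 days were treated for 1 h, and their transcripts were read on Affymetrix ATH1 arrays. The gid1a-1 gid1b-1 gid1c-2 plants, called gid1, carry mutant alleles of all GID1 receptor genes. The ga-1 plants are impaired in GA biosynthesis; the mutated gene itself was not analysed here, since the tables used pair no probe set with it. Each mutant is a single line. The other 6 arrays come from the same mutants treated with 100 µM GA3, a gibberellin, over the same time, with 3 arrays in each of the 4 groups. The submitters call the 3 arrays of a group independent biological replicates, and every array was made from the pooled RNA of whole seedlings. No wild-type array was analysed here.

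As background, GA is a plant growth hormone that is bound inside the cell by the soluble GID1 receptors. The occupied receptor binds DELLA proteins, which hold back growth, and the F-box protein SLY1 then marks the DELLA proteins for degradation. Plants without GA and plants without GID1 are both dwarfs in which DELLA proteins accumulate, and DELLA activity raises the transcripts of several upstream GA genes, the GID1 receptor genes among them. The question put to these arrays was how alike the transcriptomes of GA-insensitive and GA-deficient seedlings are, gene by gene and by level of signal.

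Array medians of the whole series lay between 7.41 and 7.56 on the log2 scale. The 3'/5' log2 differences of the control probe sets, a measure of RNA integrity, overlapped between the compared groups, at 2.02 to 2.31 for actin in ga-1 mock and 1.96 to 2.25 in gid1 mock. Replicate 2 of ga-1 mock stood apart in seed markers. The summed signal of 5 seed storage, reserve and late embryogenesis probe sets was 1013 on that array, 120.8 and 352.2 on the other ga-1 mock arrays, and between 134.1 and 236.2 on the gid1 mock arrays. Some of these signals were very low, such as 1.6 for LEA18 on ga-1 mock replicate 1, and detection calls were not used. Only 3 of these 5 probe sets passed the filter on low values. Their part in the differences below was not tested, and counts are therefore also given without that array. The summed signal of 10 photosynthesis probe sets, markers of green shoot tissue, ran from 140200 to 147800 in ga-1 mock and from 138000 to 155700 in gid1 mock. That of 3 root markers, most of it from the gene PYK10, ran from 12120 to 13340 and from 10980 to 13410. For both lists the ranges of the summed signal overlapped between the mutants. The mean log2 value of the 3 root markers, which weights them alike, did not overlap. It ran from 9.06 to 9.31 in ga-1 mock and from 8.91 to 8.97 in gid1 mock. Most of that gap came from EXPA7, a gene of low signal (log2 difference, gid1 minus ga-1, -0.68, limma adjusted p = 0.993). The log2 differences of the 3 markers had a median of -0.006 and a highest value of -0.0016. In whole seedlings, fewer cells of a type and less RNA per cell cannot be told apart.

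The mutated receptor genes were read first, since they check the labels. GID1A (AT3G05120), one of the GA receptors, had signals of 686.2, 639.5 and 710.1 on the ga-1 mock arrays and of 68.9, 70.9 and 42.4 on the gid1 mock arrays. GID1B (AT3G63010), a second receptor, had 457.6, 540.5 and 544.0 in ga-1 mock and 47.5, 74.2 and 66.9 in gid1 mock. For both genes every gid1 array lay far below every ga-1 array. The fitted change was 11.5-fold lower in gid1 for GID1A (log2 difference -3.52 ± 0.22 SE, limma adjusted p = 2.39e-07, n = 3 arrays per mutant). It was 8.29-fold lower for GID1B (log2 difference -3.05 ± 0.24 SE, limma adjusted p = 3.58e-06). The size of both changes depends on how low signals are treated. With log2(value + 32) the log2 differences were -2.95 for GID1A and -2.53 for GID1B. GID1C (AT5G27320), the remaining receptor gene, had 124.1, 99.4 and 79.1 in ga-1 mock and 170.7, 107.0 and 97.6 in gid1 mock, so its groups overlapped. Its log2 difference was 0.29, with a 95% interval from -0.31 to 0.89. The place of its probes relative to the gid1c-2 mutation is not given in the sources used here, so GID1C does not check the labels.

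A single further probe set was called, 255461_at, which has no gene name in the tables used. Its signals were 294.2, 181.1 and 296.2 in ga-1 mock and 8.4, 57.1 and 20.7 in gid1 mock, with no overlap. The log2 difference was -3.54 ± 0.51 SE (limma adjusted p = 0.0153). Its size is poorly fixed, since gid1 signals of 8.4 and 20.7 lie below the signal of 46.9 at which the tested range begins. It was -4.25 without gid1 mock replicate 2, -2.87 without gid1 mock replicate 1 and -2.30 with log2(value + 32). With GID1A and GID1B it makes 3 of 15922 probe sets tested, 0.0188%, all lower in gid1, at an adjusted p under 0.05. No probe set was called higher in gid1 in this fit, and 299 were higher at an unadjusted p under 0.05 (1.88% of those tested). In all, 729 probe sets, 4.58%, had an unadjusted p under 0.05, with 430 (2.7%) on the lower side. For 7 probe sets (0.044%) the whole 95% interval lay beyond a 2-fold difference. The call of 255461_at was lost in 7 of the 14 alternative fits that tested it, 3 of which left out 1 array: the adjusted p was 0.131 without ga-1 mock replicate 1, 0.145 without replicate 3 and 0.107 without gid1 mock replicate 3. The calls of GID1A and GID1B held in all 14, with adjusted p of at most 0.00018. Leaving out gid1 mock replicate 2 gave 5 calls. Leaving out gid1 mock replicate 1 gave 4, among them AT2G39960, called higher in gid1 (log2 difference 0.90, limma adjusted p = 0.0262).

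The arrays given GA3 are other samples of the same mutants, and they hold a second reading of the 3 called probe sets. Probe set 255461_at had 233.5, 247.7 and 321.9 in ga-1 with GA3 and 49.3, 22.4 and 36.0 in gid1 with GA3. The groups again did not overlap, with a log2 difference of -2.96 ± 0.51 SE (limma adjusted p = 0.00527, 1.26% of probe sets called in this contrast). That call held in all 14 alternative fits run for it. GID1A had 208.9, 194.0 and 235.4 in ga-1 with GA3 and 55.5, 60.9 and 64.0 in gid1 with GA3. The groups did not overlap, and the difference was -1.82 on the log2 scale (limma adjusted p = 0.000207). GID1B had 87.6, 73.3 and 79.0 against 112.0, 93.1 and 78.3, which overlap. Its log2 difference with GA3 was 0.23 (adjusted p = 0.804). GID1A and 255461_at were lower in gid1 with and without GA3, and GID1B was called lower in mock seedlings alone; for GID1B the mock and GA3 differences themselves differed by 3.28 on the log2 scale (limma adjusted p = 0.00012).

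**Figure D1:**
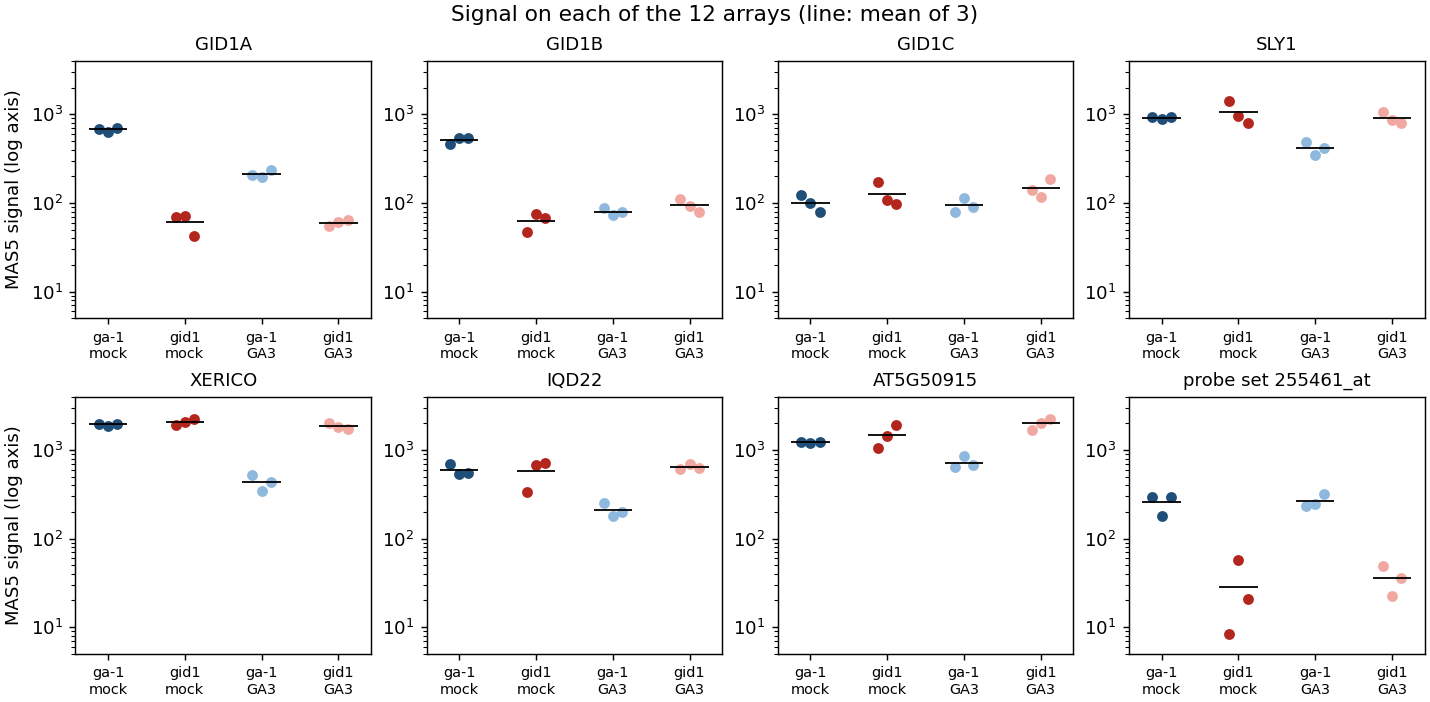
MAS5 signal on a log axis for 8 probe sets on each of the 12 arrays, with the 4 groups side by side, a point per array and a line at the mean of 3 arrays. GID1A, GID1B and 255461_at are low in gid1 mock, whereas XERICO, SLY1, IQD22 and AT5G50915 stand at overlapping levels in the 2 mock groups.

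Beyond these 3 probe sets, the arrays of the mutants were about as close to each other as replicates of 1 mutant were. The SD of the log2 difference across the 15922 probe sets, a distance between 2 arrays, ran from 0.356 to 0.429 for the 3 pairs of ga-1 mock arrays and from 0.436 to 0.473 for the 3 pairs of gid1 mock arrays. The 9 pairs made of 1 array of each mutant ran from 0.383 to 0.487. Their median, 0.440, lay between the medians of the ga-1 pairs, 0.412, and the gid1 pairs, 0.467. Pearson correlations across probe sets showed the same order, with medians of 0.974 within ga-1, 0.968 within gid1 and 0.970 between mutants. These correlations describe the arrays, which share all probes. They carry no test, because probe sets are not replicates. Replicate 2 of gid1 mock was closer to each of the ga-1 arrays (0.383 to 0.416) than to either gid1 array (0.436 and 0.467), although its GID1A and GID1B signals were low. A signal at least 2-fold apart was seen for 1.81% to 3.01% of probe sets between ga-1 replicates, 3.23% to 4.03% between gid1 replicates and 2.28% to 4.31% between the mutants.

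**Figure D2:**
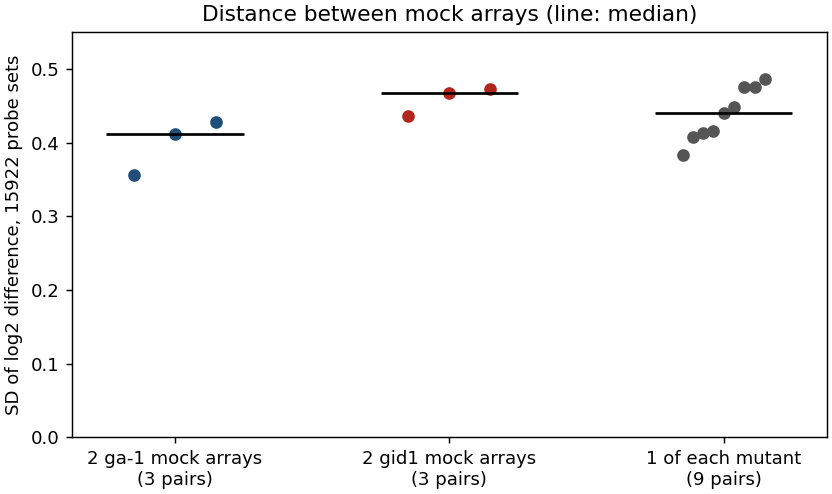
SD of the log2 difference across 15922 probe sets for each pair of mock arrays, grouped by whether the pair lies within ga-1, within gid1 or between them, with a line at the median. The 9 pairs between mutants span 0.383 to 0.487, which overlaps the pairs within gid1 (0.436 to 0.473) and within ga-1 (0.356 to 0.429).

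Over the means of 3 arrays, the mutants correlated at 0.989 across probe sets. The median log2 difference was -0.010, and the median size of a difference without its sign was 0.13. For 94.8% of probe sets the difference was under 0.5 on the log2 scale. A missing call does not show likeness, so the 95% interval of each difference was read as well. For 13830 probe sets (86.9%) the whole interval lay between -1 and 1, that is, the data allow a difference of no more than 2-fold either way. For 7041 (44.2%) it lay between -0.5 and 0.5. For 7 probe sets the whole interval lay beyond a 2-fold difference, GID1A, GID1B and 255461_at among them. For the probe sets outside both these 7 and the 13830, 3 arrays a group did not settle whether the mutants differed by 2-fold.

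How closely the mutants could be compared depended on the level of signal. The tested probe sets were split into 5 equal classes by their mean log2 value over all 12 arrays. Mean signals ran from 46.9 to 127 in the lowest class, 127 to 262 in the second, 262 to 486 in the third, 486 to 1100 in the fourth and 1100 to 32800 in the highest. The SD of the difference between mutants fell from 0.436 in the lowest class through 0.252, 0.202 and 0.173 to 0.144 in the highest. The SD that the spread between replicates alone would give to such a difference was 0.439, 0.252, 0.201, 0.173 and 0.149. The ratio of these was thus between 0.968 and 1.01 in every class. Leaving out gid1 mock replicate 2, the array closest to ga-1, raised the ratio to between 1.03 in the lowest and 1.17 in the highest class. Without each of the other mock arrays in turn it lay between 0.86 and 1.01.

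The interval lay within 2-fold for 44.6% of probe sets in the lowest class, 93.2% in the second, 98% in the third, 98.9% in the fourth and 99.7% in the highest. A margin of 0.5 on the log2 scale was met by 0.0314% of the lowest class and by 84.2% of the highest. The share with an unadjusted p under 0.05 stayed between 4.18% and 5.15% in the 5 classes. The share whose 3 gid1 arrays did not overlap the 3 ga-1 arrays stayed between 10.1% and 12%, against 11% over all tested probe sets. The 6824 probe sets removed as low, with mean signals under 46.9, had an SD of 1.07 between mutants where the replicate spread gives 1.08, and only 1 of them had its interval within 2-fold. Within each class, gid1 replicates lay further apart than ga-1 replicates, with mean pair SDs of 0.733 and 0.686 in the lowest class and of 0.283 and 0.197 in the highest.

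**Figure D3:**
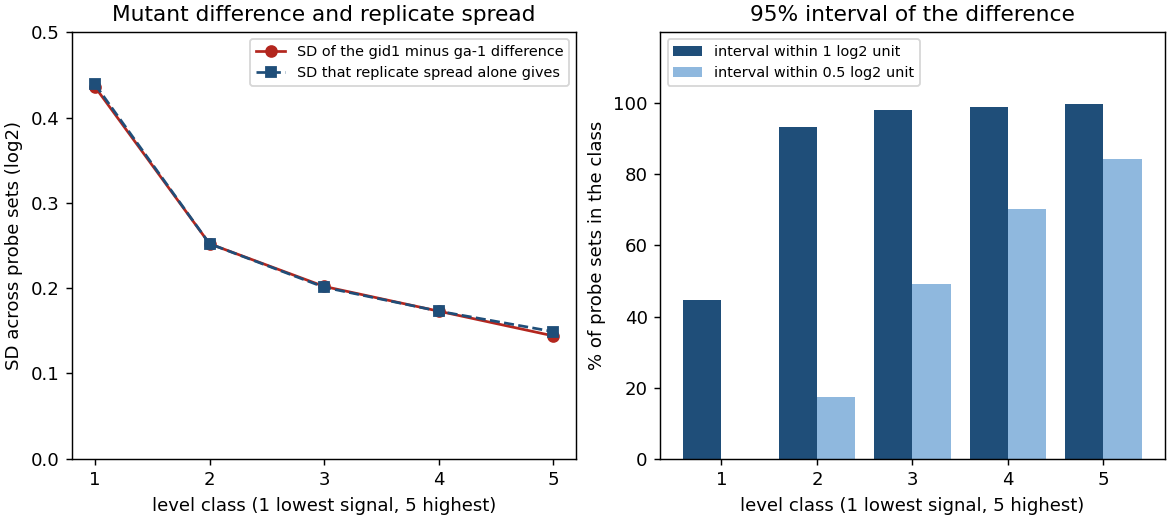
Left, the SD across probe sets of the log2 difference between gid1 mock and ga-1 mock (circles) and the SD that replicate spread alone gives (squares), by level class. Right, the share of probe sets in each class whose 95% interval lies within 1 or 0.5 log2 unit. The SDs run together from 0.436 and 0.439 down to 0.144 and 0.149, while the share within 1 log2 unit grows from 44.6% to 99.7%.

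**Figure D4:**
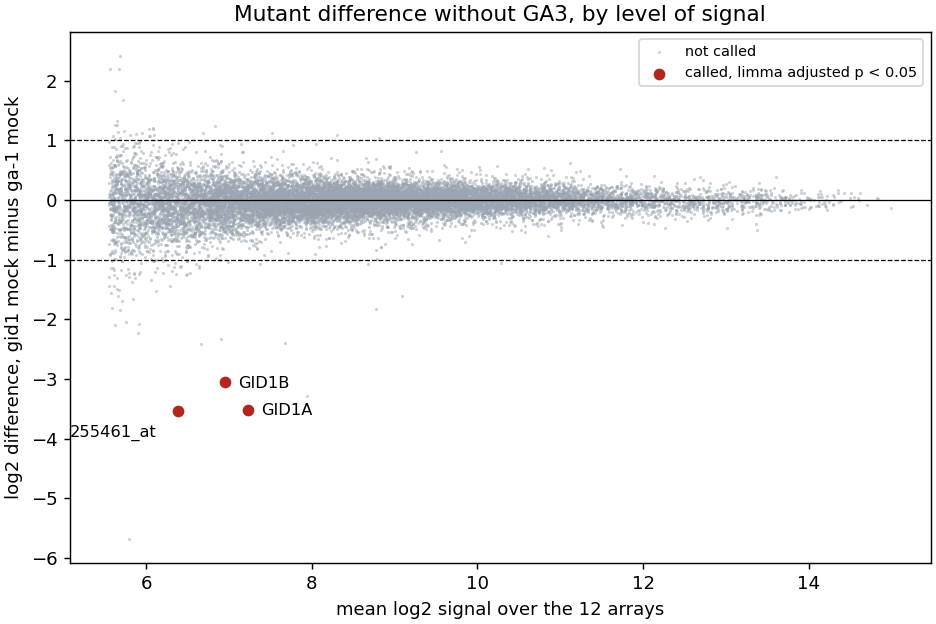
Log2 difference, gid1 mock minus ga-1 mock, against the mean log2 signal over 12 arrays for 15922 tested probe sets, with dashed lines at a 2-fold difference. The called probe sets GID1A, GID1B and 255461_at lie below -3. So do 249082_at (-5.68) and 253767_at (-3.28), which were not called. The cloud of other probe sets narrows as the signal grows.

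The genes of GA perception were described next, in the order of their roles, from a list of 12 genes of which 7 had a named probe set. Among them 2 were called lower (GID1A and GID1B, over a background of 0.0188%) and none higher, and the median log2 difference was 0.17, against -0.010 over all tested probe sets. SLY1 (AT4G24210), the F-box protein that directs DELLA degradation, had 945.0, 886.5 and 926.8 in ga-1 mock and 1412.9, 967.7 and 807.0 in gid1 mock. The groups overlapped, and the log2 difference of 0.17 had a 95% interval from -0.22 to 0.55. SLY2, a related F-box gene, stood 0.46 higher on the log2 scale with a wider interval, -0.16 to 1.09. SPY, a glycosyltransferase that modifies DELLA proteins, differed by 0.07 (-0.30 to 0.43). SEC, which adds another sugar to DELLA proteins, had 577.1, 525.4 and 697.4 in ga-1 and 731.3, 711.6 and 736.5 in gid1. The SEC arrays did not overlap, and the log2 difference of 0.29 missed the threshold (limma adjusted p = 0.993). For SLY1, SPY, SEC and GID1C the interval excluded a 2-fold difference in either direction, and for SLY2 it did not. No probe set of the lists of GA biosynthesis and GA inactivation genes had a name in the tables used, so these genes were not analysed here.

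DELLA proteins and their activity were not measured here. Genes known to be raised by DELLA proteins were read instead. Of a list of 12, 6 had a named probe set, again with GID1A and GID1B as the 2 called members, and the median log2 difference was -0.011. That median includes GID1A and GID1B, which are themselves mutated in gid1. The other 4 members, given below, ran from -0.12 to 0.49. XERICO (AT2G04240), a RING-type protein gene, had 1987.0, 1878.9 and 1964.0 in ga-1 mock and 1933.3, 2079.8 and 2241.9 in gid1 mock. These overlap, and the log2 difference of 0.10 had an interval from -0.20 to 0.39. The same gene had 528.0, 341.9 and 437.5 in ga-1 with GA3 and 2014.8, 1818.1 and 1716.0 in gid1 with GA3, so its ga-1 arrays with GA3 were the ones that stood apart. IQD22, of a calmodulin-binding family, had 691.3, 539.5 and 556.2 in ga-1 mock and 335.0, 672.8 and 714.5 in gid1 mock, an overlap with a low first gid1 array. Its log2 difference was -0.12 (-0.60 to 0.36). The basic helix-loop-helix gene AT5G50915 had 1230.3, 1213.5 and 1237.0 in ga-1 mock and 1041.1, 1432.9 and 1923.5 in gid1 mock, which overlap (0.21 on the log2 scale, -0.17 to 0.59). Another gene of that class, AT2G31730, had 616.8, 529.8 and 825.0 against 1019.8, 834.1 and 884.3. Its arrays did not overlap, but the log2 difference of 0.49 (0.12 to 0.86) missed the threshold with an adjusted p of 0.993. All 4 intervals of the mock difference lay within 2-fold. In ga-1, GA3 lowered XERICO (log2 change -2.18, limma adjusted p = 1.96e-07) and IQD22 (-1.52, 0.0025). The changes of AT5G50915 (-0.78, 0.0558) and AT2G31730 (-0.38, 0.629) were not called.

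The GA3-responsive probe sets of ga-1 as a whole were read in the same way. The 109 that fell with GA3 in ga-1 changed by a median of -1.12 on the log2 scale in that mutant, and their median difference between the mock mutants was -0.0032. GID1A and GID1B were among these 109, whose mock differences had an SD of 0.486, against 0.264 over all tested probe sets. For 101 of the 109 (92.7%) the interval of the mock difference lay within 2-fold, against 86.9% over all tested probe sets. The 20 that rose changed by a median of 0.85 and had a median mock difference of 0.08, and all 20 intervals lay within 2-fold. Both sets were chosen with the ga-1 mock arrays, which also enter the mock difference. They were chosen by adjusted p from the same fit, which favours probe sets of small spread and so narrow intervals. These values are therefore a description and carry no test.

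**Figure D5:**
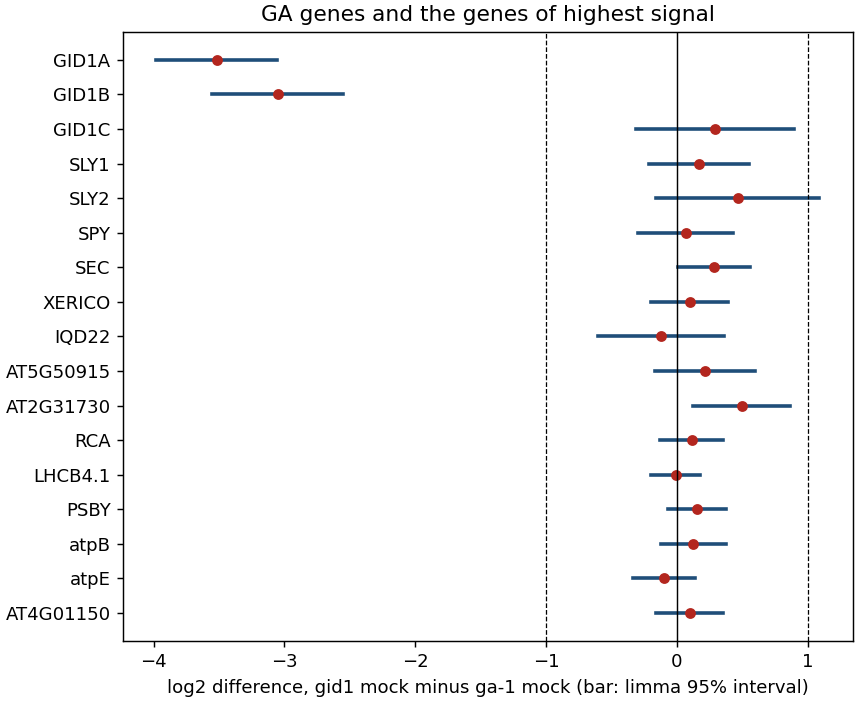
Log2 difference, gid1 mock minus ga-1 mock, with its limma 95% interval for the tested genes of GA perception, the DELLA-raised genes and the 6 named genes of highest signal; dashed lines mark a 2-fold difference. GID1A and GID1B lie at -3.52 and -3.05, while of the others only the interval of SLY2 reaches past 1, to 1.09.

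At the top of the signal range the mutants could be compared most closely. RCA, Rubisco activase, had 24792.8, 21729.4 and 22237.7 in ga-1 mock and 28560.3, 22892.8 and 23111.9 in gid1 mock, which overlap (log2 difference 0.11, -0.13 to 0.35). LHCB4.1, an antenna protein of photosystem II, had a log2 difference of -0.01, with the narrowest interval of the 6 genes of highest signal among probe sets with a single gene name, -0.20 to 0.18. PSBY of photosystem II differed by 0.15 (-0.07 to 0.37). The chloroplast ATP synthase genes atpB and atpE differed by 0.12 (-0.12 to 0.37) and -0.10 (-0.34 to 0.14), and AT4G01150, a thylakoid protein gene, by 0.10 (-0.16 to 0.36). Of 7 photosystem and light-harvesting genes and 3 Rubisco and Calvin cycle genes tested, none was called. All 10 had their interval within 2-fold, and their log2 differences ran from -0.10 to 0.15. All 23 tested genes of ubiquitin-conjugating enzymes and ubiquitin-specific proteases were within 2-fold as well, with differences from -0.13 to 0.39.

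Other families showed where the comparison was less tight. Of 69 chloroplast-encoded genes, 37 were lower and 32 higher in gid1, none was called, and the median log2 difference was -0.019. Their summed signal ran from 239700 to 326900 in ga-1 mock and from 234800 to 323000 in gid1 mock, so single arrays differed by more than the mutants. The interval lay within 2-fold for 52 of the 69 (75.4%, against 86.9% over all tested probe sets). An unadjusted p under 0.05 was found for 4 of the 69, against 4.58% of all tested probe sets, so nothing is read from this count. These were petD of the cytochrome b6f complex (0.93), ndhG (0.80), the plastid RNA polymerase gene rpoB (0.65) and psaJ of photosystem I (0.39). All had an adjusted p of 0.993, and with GA3 the values were 0.13, 0.14, 0.06 and -0.21.

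UDP-glycosyltransferases attach sugars to hormones and other small molecules. Of 30 tested, 22 were higher and 8 lower in gid1, with a median log2 difference of 0.11, and none was called. Over all 15922 tested probe sets, 7615 were higher and 8307 lower. An unadjusted p under 0.05 was found for 5 of the 30, all higher, against 4.58% of all tested probe sets. These 5 are the ones named here. The lists were chosen with earlier results of these data known, so nothing is read from these counts. UGT76B1, which acts on defence compounds, had 173.2, 256.8 and 306.4 in ga-1 mock and 627.8, 357.1 and 582.3 in gid1 mock. Its arrays did not overlap, and the log2 difference of 1.09 had an adjusted p of 0.993. With GA3 it had 370.9, 101.0 and 235.7 in ga-1 and 396.2, 336.6 and 499.4 in gid1, where the arrays overlap (log2 difference 0.97, limma adjusted p = 0.276). UGT71C4 was higher in gid1 mock by 0.55 and lower with GA3 by 0.37 on the log2 scale, with adjusted p of 0.993 and 0.37. UGT71C2, UGT74D1 and UGT72E1 had mock differences of 0.63, 0.32 and 0.30 and differences with GA3 of 0.15, 0.73 and 0.04, with adjusted p of 0.993 in mock. Of these, UGT74D1 was called with GA3 (limma adjusted p = 0.00647).

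No member was called in the families of cell wall and growth genes. The 11 expansins, which loosen walls, had a median log2 difference of -0.08, with EXPA7 of root hairs lowest (-0.68, interval -1.37 to 0.02). The 6 xyloglucan endotransglucosylase genes had a median of -0.032, from -0.43 for XTH20 to 0.56 for XTH18. XTH18 had 641.9, 490.9 and 883.1 in ga-1 mock and 1144.5, 1052.3 and 738.7 in gid1 mock, which overlap. The 16 trichome birefringence-like genes, of wall acetylation, ran from -0.70 (TBL26) to 0.55 with a median of 0.02. Among 8 genes of glycoside hydrolase family 9, GH9B12 had 53.2, 72.8 and 122.5 in ga-1 mock and 28.0, 37.9 and 30.4 in gid1 mock, without overlap (-1.29 on the log2 scale, adjusted p = 0.993). Among 19 IQD and TRM genes, linked to microtubules, the lowest was IQD16 (-1.29, -3.16 to 0.59), whose wide interval shows that its 3 arrays a group settled little.

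No member of the remaining lists was called. The 6 auxin early-response genes had a median of -0.14, with GH3.9 at 0.51 and IAA29 at -0.28. The 14 genes with CYP symbols, a prefix that cytochromes P450 share with cyclophilins, had a median of -0.011, the 5 WRKY factors 0.07, the 11 beta-glucosidases 0.04, the 15 serine carboxypeptidase-like genes -0.0045 and the 9 tau glutathione transferases -0.06. The beta-glucosidase BGLU28 had a difference of 0.82 (0.10 to 1.54, adjusted p = 0.993), with overlapping arrays. PYK10, an abundant root and hypocotyl beta-glucosidase, had 13095.4, 11832.1 and 11994.2 in ga-1 mock and 13164.0, 12945.0 and 10765.8 in gid1 mock, which overlap (-0.01 on the log2 scale, -0.27 to 0.26). The seed reserve genes ICL, an isocitrate lyase, and PAP85, a vicilin-type storage protein, had log2 differences of -1.26 and -1.23 (adjusted p = 0.993). Their highest mock signals, 508.1 and 199.4, were both on ga-1 replicate 2.

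Differences of 2-fold or more were few and lay at low signals. They were found for 103 probe sets (0.647%), of which 76 (0.477%) were lower and 27 (0.17%) higher in gid1, 91 were in the lowest class. Arrays did not overlap for 51 of the 103, against 11% of all tested probe sets, but the 103 were chosen for a large difference, so nothing is read from that share. The main test called 3 of them and not the other 100. With GA3, 301 probe sets (1.89%) differed at least 2-fold between the mutants. Without ga-1 mock replicate 2, the array high in seed markers, 78 were lower and 54 higher. Over the 6 fits that each left out 1 mock array, an alternative added after seeing the data, the counts ran from 78 to 124 lower and from 35 to 69 higher. Among named genes without overlap, AT4G33720, of the family of pathogenesis-related PR1-like proteins, was the next lowest after the receptors. It had 395.7, 652.7 and 382.5 in ga-1 mock and 117.6, 120.4 and 47.1 in gid1 mock, without overlap (-2.40 ± 0.48 SE on the log2 scale, limma adjusted p = 0.322). With GA3 it had 870.4, 145.3 and 445.9 in ga-1 and 141.9, 89.2 and 119.0 in gid1, also without overlap (log2 difference -1.74, adjusted p = 0.11). A fit of the mock groups alone called it, with an adjusted p of 0.0489.

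The other named genes with the largest differences without overlap were in the lowest class, except UGT76B1, given above, which was in the third. AT5G45320 had 80.8, 89.0 and 76.5 in ga-1 mock and 9.8, 56.8 and 13.9 in gid1 mock, without overlap (-2.05 on the log2 scale, adjusted p = 0.9), and it was called without gid1 mock replicate 2 (-2.81, adjusted p = 0.0266). AT2G31990 and AT1G26330 were lower by log2 differences of -1.56 and -1.49. On the higher side, AT2G38160 had 68.4, 35.1 and 2.3 in ga-1 mock and 99.9, 110.5 and 75.3 in gid1 mock. The difference of 2.41 on the log2 scale rests largely on the single value of 2.3. QQS, a gene linked to starch content, had 75.3, 40.1 and 97.7 against 161.0, 200.3 and 120.5 (1.24), and AT2G01460, AT2G04460 and AT4G32000 were higher by 1.22, 1.19 and 1.15. All of these missed the threshold, with adjusted p of 0.9 or more.

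The named gene of smallest p in either direction was also taken from each level class. On the lower side these were GID1B in the lowest class and GID1A in the second, both called, and on the higher side of the lowest class it was AT2G04460, given above. In the third class AT5G19630 had 588.8, 589.9 and 546.2 in ga-1 mock and 271.0, 360.5 and 342.8 in gid1 mock, without overlap (-0.83 on the log2 scale, adjusted p = 0.22), and AT2G21080 was higher by 0.71 (adjusted p = 0.9). With GA3 the difference of AT5G19630 was -0.09. In the fourth class AT5G42765 was lower by 0.37 and UGT71C4 higher by 0.55 on the log2 scale. In the highest class BCAT4, an enzyme of methionine-derived glucosinolate synthesis, had 2732.4, 2391.3 and 2070.6 in ga-1 mock and 1778.5, 1758.1 and 1253.7 in gid1 mock, without overlap. Its log2 difference was -0.60 (-0.95 to -0.24, adjusted p = 0.993), and -0.31 with GA3. AT1G19450, of a sugar transporter family, had 1403.5, 1781.6 and 1580.6 against 2149.2, 2030.8 and 2170.0, without overlap (0.42, 0.19 to 0.65, adjusted p = 0.9), and 0.20 with GA3. AT5G35940 in the second class was higher by 0.94 in mock and by 0.63 with GA3 (adjusted p = 0.92 and 0.32). Apart from GID1A and GID1B, none of these genes passed the threshold.

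Across all probe sets the mutant differences of the mock arrays were read again in the arrays given GA3, which share no sample with them. Of the 76 probe sets at least 2-fold lower in gid1 mock, 40 (52.6%) were also lower with GA3, and their median went from -1.24 to -0.025. Of the 27 at least 2-fold higher, 15 (55.6%) were also higher, and the median went from 1.15 to 0.01. Over all tested probe sets 52.6% had the same sign in both. By direction, it was 54.3% of all those lower in gid1 mock and 50.6% of all those higher. A difference of at least 2-fold on the same side was seen again with GA3 for 12 of the 76 (15.8%) and 0 of the 27. GID1A and 255461_at were among the 12. Over all tested probe sets that share was 1.02%, a background not matched for level of signal. Of the 960 probe sets lower in gid1 mock without overlap of arrays (6.03%), 57.8% kept the sign, and of the 798 higher without overlap (5.01%), 56.9% did. The correlation of the 2 differences across 15922 probe sets was 0.0382, given as a description. GA3 changed some genes of ga-1, and the seed markers were high in gid1 with GA3 (summed signal 544.9 to 1476, against 165.3 to 240.3 in ga-1 with GA3). In mock the groups overlapped in that sum: ga-1 replicate 2 had the highest, 1013, and ga-1 replicate 1 the lowest, 120.8. The part of the GA3 changes or of the seed markers in the values above was not tested.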

How the data were processed

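Intensities were deposited on a linear scale and, per the submitters' processing notes, are MAS5 signals (version not stated). Their trimmed mean (2% off each end) was 500 on every array. Detection calls were not used here. Groups follow the titles, since a free-text field names GA3 for mock samples too. Values under 1 were set to 1 before log2. Control probe sets (64) were dropped, as were those whose mean log2 value fell under the 30th percentile (5.55), leaving 15922 of 22746. Group means of all 12 arrays were fitted with limma 3.58.1 in R 4.3.3, using eBayes with a trend on intensity, Benjamini-Hochberg adjustment at 0.05 and 95% intervals. The fit was also run on simulated arrays with independent normal noise, which cannot show how it handles an outlying array. The replicate spread is the root mean square residual SD of that fit, scaled to a difference of means of 3 arrays. Names came from the platform annotation, updated through a TAIR10.1 gene table: 13513 of 22810 probe sets had 1 symbol, 503 several and 8794 none, and 8770 of those tested had 1. Genes were named by rule: receptors, called probe sets, the 6 largest differences each way without overlap, the smallest p each way per level class, the 6 highest signals among probe sets with 1 symbol, all tested GA and DELLA genes, and 2 members by smallest p of lists with at least 3 tested. Members and lists were chosen with earlier results of these data known, and 9 family lists were added or rewritten after the names table was seen. UGT71C2, UGT74D1, UGT72E1, ndhG, rpoB, ICL and PAP85 fall outside the rule and were chosen after their values were seen. Precision is limited by 3 arrays a group, and p-values measure the spread between these samples. Alternatives were other scalings, filters, a constant of 32, no trend, the 2 groups alone, array weights, the replicate block, each array left out, and other thresholds.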

Additional observations from a re-analysis of the deposited data

Results flagged for a closer look

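For 4 genes named above, the difference between the mutants was not the same with and without GA3, by limma's test of the difference of differences (35 of 15922 probe sets called, 0.22%). The gid1 minus ga-1 log2 difference was greater with GA3 than in mock by 3.28 for GID1B (adjusted p = 0.00012), 2.01 for XERICO (adjusted p = 0.00012), 1.75 for IQD22 (adjusted p = 0.0303) and 1.70 for GID1A (adjusted p = 0.0294). In ga-1 the log2 change with GA3 was -2.68 for GID1B, -2.18 for XERICO, -1.52 for IQD22 and -1.68 for GID1A, so in mock seedlings XERICO and IQD22 overlapped between mutants and with GA3 they did not. The groups of 3 arrays are too small for a test of single outlying arrays.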

How the results depend on the processing

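The count of 3 calls stayed within 1.5 times under every setting run except a filter at the 50th percentile, where none of the 3 was tested and the count was 0, and without gid1 mock replicate 2. With each mock array left out in turn it ran from 2 to 5. Without gid1 mock replicate 2 the 5 were GID1A, GID1B, 255461_at, AT5G45320 and AT5G42330. GID1A and GID1B were called in each fit that tested them. The call of 255461_at was lost with quantile normalization (adjusted p = 0.0543), without the intensity trend (0.238), in the 2 groups alone (0.0821) and with the replicate block (0.0636). The replicate block called 2 probe sets in place of 3. Same-numbered mock arrays shared only a number, with correlations of their deviations of 0.0042, -0.013 and 0.0665. The share of probe sets with the interval within 1 log2 unit was 44.2% for a margin of 0.5, 59.5% without the low-value filter and between 81.2% and 98.3% otherwise. The SD of the difference with log2(value + 32) was 0.279 in the lowest class, 0.212 in the second and 0.304 in the probe sets removed as low, since the constant compresses low signals. With that constant 15 probe sets were at least 2-fold lower and 3 higher in gid1, in place of 76 and 27; these counts under other settings were added after seeing the data. Leaving out 1 array, which averages fewer arrays, gave SDs of 0.458 to 0.508 in the lowest class, 0.266 to 0.301 in the second, 0.21 to 0.247 in the third, 0.178 to 0.217 in the fourth, 0.146 to 0.192 in the highest and 1.18 to 1.21 in the probe sets removed as low, with the highest value in each without gid1 mock replicate 2. Some small differences that were not called changed sign. LHCB4.1 was at 0.032 with median centring, 0.021 with array weights and -0.055 to 0.043 with each array left out, and PYK10 at 0.035, 0.0039 and -0.059 to 0.086. With each array left out, atpB ran from -0.016 to 0.25, atpE from -0.23 to 0.023, SPY from -0.054 to 0.20, SLY1 from -0.057 to 0.35, IQD22 from -0.32 to 0.23 and AT5G50915 from -0.0065 to 0.44. The cause was not tested.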

Other observations

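The largest mock difference on the arrays belonged to an unnamed probe set that was not called, chosen here after its values were seen. Probe set 249082_at had 1.6, 2217.7 and 395.6 in ga-1 mock and 2.6, 1.3 and 3.1 in gid1 mock (log2 difference -5.68, limma adjusted p = 0.993), so its first ga-1 array was as low as the gid1 arrays. It had 623.8, 3189.8 and 2898.1 in gid1 with GA3 and 1.4, 8.4 and 821.1 in ga-1 with GA3. Probe sets 253767_at and 253904_at also had their highest ga-1 mock signals, 2541.7 and 906.9, on replicate 2. The seed reserve gene ICL had 16.0, 508.1 and 155.9 in ga-1 mock and 63.7, 17.2 and 84.3 in gid1 mock, with the same array highest. Of the 76 probe sets at least 2-fold lower in gid1 mock, the highest of the 6 mock arrays was ga-1 replicate 2 for 35, and the lowest was gid1 replicate 1 for 40. Whether these probe sets follow the seed markers was not tested.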
